A study of Mus musculus with 17 samples.

Results

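The kidneys of wild-type mice were compared after injections of aristolochic acid (AA), a plant nephrotoxin, and of vehicle, by single-cell RNA sequencing of sorted GFP+ cells. The comparison was defined by the sample labels, which gave 3 AA and 3 vehicle libraries, 6 of the 9 kidney libraries and of the 17 libraries in the series. After cells with fewer than 200 detected genes or more than 30% mitochondrial UMIs (unique molecular identifiers, each counting 1 captured RNA molecule) were left out, 47038 cells remained, with 11037, 10900 and 7373 in vehicle 1, 2 and 3 and 7605, 4509 and 5614 in AA 1, 2 and 3. In what follows, values of single libraries are given in this order, replicate 1, 2 and 3 of each group.

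By the labels, all mice were 8 weeks old, carried PDGFRb-Cre and the Z/EG reporter, and had the genotype Wildtype, without the Sara transgene. AA was given at 5 mg/kg intraperitoneally 3 times a week for 3 weeks, and the controls received vehicle by the same route. Z/EG cells turn GFP on permanently once Cre has acted, so by design GFP marks cells in whose history the Pdgfrb promoter drove Cre, not cells that express Pdgfrb at harvest. The study's own account of this Cre notes that leukocytes were labelled too, through promoter activity in the embryo. The labels name the sorted cells PDGFRb+GFP+, gave 1 library per replicate, and do not say how many mice stood behind a library, so p-values measure only the spread between these libraries.

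Aristolochic acid is taken up by the epithelial cells of the proximal tubule through organic anion transporters, and its reduced metabolites bind DNA. The proximal tubule reabsorbs most of the filtrate through an apical brush border rich in transporters, and its injured cells lose this programme while expressing injury markers such as Havcr1 (KIM-1), with p53 target genes as the textbook response to damaged DNA. Leukocytes enter the injured interstitium, among them T cells, monocytes that become macrophages, and B cells.

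Few of the sorted cells were of a pericyte or fibroblast type by their marker genes. Pdgfrb, the receptor that the sort label names, was at 0.19 to 1.53 CPM (UMIs per 1000000 UMIs of the library's sum) over all cells, with 275 UMIs in the 6 libraries together. Other genes of pericytes, smooth muscle or fibroblasts had more. Cspg4, which encodes NG2, had 3034 UMIs, 2494 of them in proximal tubule cells. Acta2 had 3905, Rgs5 1297, Mcam 577 and Col1a1 325. By marker genes, 41 cells were of the pericyte or smooth muscle type and 11 of the fibroblast type, against 22191 of the proximal tubule type and 13372 of the T cell type. The cells are therefore named below by the markers of each type and not by the sort. Whether the proximal tubule cells carried GFP was not tested. Shares given below are of the cells kept after the sort and not of the tissue.

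Total UMIs per library were 137093834, 108041561 and 64492436 with vehicle and 63515678, 28660151 and 49950093 with AA. The median per cell kept was 9470, 8315.5 and 4814 with vehicle and 4505, 3975 and 5569 with AA. Median mitochondrial UMIs were 11.8, 8.66 and 4.88% with vehicle and 4.03, 4.76 and 3.96% with AA. In these measures, too, vehicle 3 lay nearer to the AA libraries than to vehicle 1 and 2. The part of depth in the results below was not tested. Pairs of libraries shared 7 to 45 cell barcodes. Zfyve9, which encodes SARA, was at 25.9, 31.9 and 10.9 CPM with vehicle and 166, 13.1 and 13.4 CPM with AA, against 95.8 and 92.2 CPM in the transgenic vehicle libraries and 20.7 CPM in the library labelled transgenic AA. The library labelled AA 1 thus had a Zfyve9 level above those of both transgenic vehicle libraries although its label says wild type. The study describes its transgene as a cDNA of human SARA. How far reads of that cDNA were counted under mouse Zfyve9 was not tested. The library labelled transgenic AA lay within the 10.9 to 31.9 CPM of the other 5 wild-type libraries, so that it too goes against its label, and in T cells it was at 2.70 CPM against 41.6 and 34.1 CPM in the transgenic vehicle libraries. It enters only the alternative fit with all 9 kidney libraries. For AA 1, counts of calls and the values of several named genes are also given without it. Vehicle 2 was the only library of the 6 with Xist, at 1349 CPM, and it had 0.03 CPM of the Y-linked Ddx3y against 53.4 to 55.5 CPM in the others, so sex was not balanced between the groups.

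Vehicle 3 stood apart from vehicle 1 and 2, in the direction of the AA libraries, in the makeup of its cells and in the genes described below. Its label was kept. Counts of calls are given for all 6 libraries first and then without vehicle 3. Since the injury genes of these same libraries singled it out, counts without it describe the other 5 libraries and are no independent evidence of an effect of AA. The gene lists used below were chosen with earlier results of these data known. Counts of list genes set against all genes are therefore descriptions and no independent evidence either.

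The makeup of the sorted cells differed widely within the vehicle group. Proximal tubule cells made up 85.2, 77.6 and 17.6% of cells with vehicle and 8.86, 35.3 and 13.8% with AA, a mean of 60.1% ± 37.0 (SD, n = 3) against 19.3% ± 14.0 (SD, n = 3). T cells made up 2.94, 3.6 and 45.2% with vehicle and 51.2, 44.9 and 60.7% with AA. For both types vehicle 3 lay among the AA libraries, and the groups overlapped (two-sided exact permutation test of the means, p = 0.2 for each).

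B cells were 1.2, 0.339 and 2.41% of cells with vehicle and 2.93, 8.65 and 3.95% with AA, every AA library above every vehicle library. Urothelial cells, which line the renal pelvis, were few, 102 over all libraries, of which 15, 35 and 31 were in the vehicle libraries. They were 0.136, 0.321 and 0.42% with vehicle and 0.131, 0.111 and 0.107% with AA, every AA library below. These were the only types of the 18 whose groups did not overlap, and 3 libraries against 3 cannot give an exact p below 0.1, the p of both; no share had an adjusted p below 0.8. Macrophages were 2.51, 4.39 and 15.0% with vehicle and 12.8, 3.37 and 7.82% with AA, and monocytes were 0.824, 1.0 and 4.34% with vehicle and 7.55, 0.776 and 5.2% with AA, with overlap in both.

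Without vehicle 3 the difference of the mean shares (AA minus vehicle) was -62.1 percentage points for proximal tubule cells, 49.0 for T cells and 4.41 for B cells, against -40.8, 35.0 and 3.86 with all 6 libraries. Without AA 1 the differences were -35.6, 35.6 and 4.99 percentage points. These 3 kept their sign, while that of macrophages was 0.70 percentage points with all 6 libraries, 4.57 without vehicle 3 and -1.72 without AA 1. For monocytes the differences were 2.45, 3.60 and 0.934 percentage points in the same order.

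**Figure D1:**
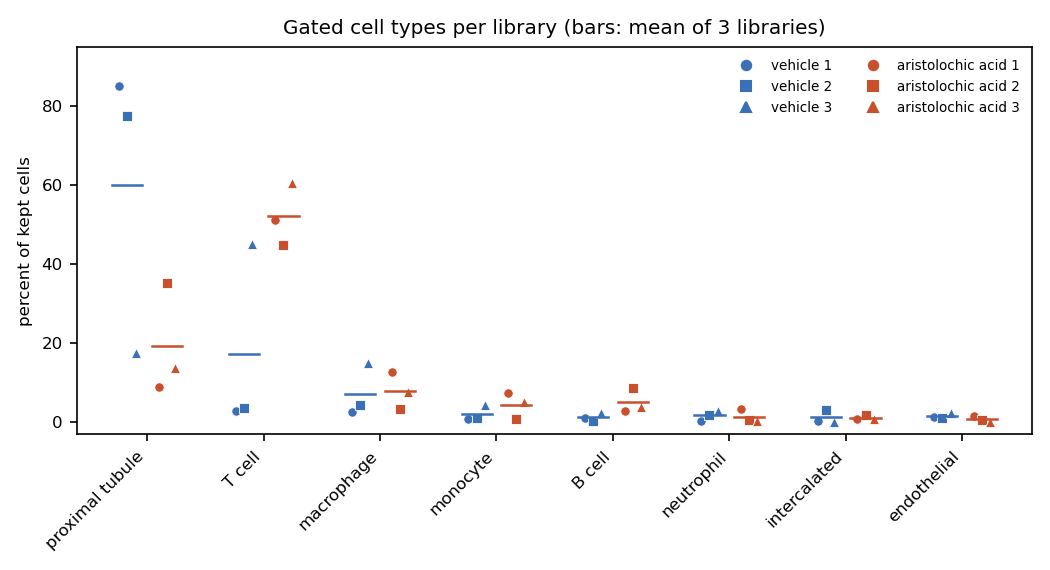
The percentage of all cells kept that were assigned to a cell type is plotted for several types side by side. There is 1 point per library, for vehicle and AA, with a bar at the group mean. Vehicle 3 lies with the AA libraries for proximal tubule cells and T cells, and the B cell shares of the 2 groups do not overlap.

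UMIs summed over all cells of a library read this makeup as well as expression: for such sums, fewer cells of a type and less RNA per cell cannot be told apart. With 6 libraries, edgeR called 0 of 16215 genes (1305 at an unadjusted p under 0.05, smallest adjusted p 0.467), and DESeq2 called 88. The genes of the cytotoxic lymphocyte list had a median log2 fold change of 1.52 (AA against vehicle) against -0.031 over all genes tested, and 6 of 13 had every AA library above every vehicle library, against 12.2% of all genes tested. Ms4a1, which encodes the B cell antigen CD20, was at 4.60, 2.96 and 6.93 CPM with vehicle and 15.9, 73.8 and 26.1 CPM with AA (log2 fold change 2.87 ± 0.70 (SE), adjusted p = 0.467). It did not pass edgeR's test, though DESeq2 called it higher and all AA libraries lay above all vehicle libraries.

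Without vehicle 3, 4090 of 16663 genes were called over all cells, 2632 higher (15.8%) and 1458 lower (8.75%). They held 13 of 13 genes of the cytotoxic list and 22 of 25 interferon-stimulated genes higher, 0 lower, and 8 of 19 respiratory chain genes and 7 of 34 genes of proximal tubule transport and metabolism lower. Without both vehicle 3 and AA 1, 1077 of 16579 genes were called (6.5%), 1010 higher (6.09%) and 67 lower (0.404%). Leaving out AA 1 alone left 0 genes called over all cells and in each type tested but B cells. Among the genes higher without vehicle 3 that averaged 20 CPM or more, Ccl8, a monocyte-attracting chemokine, had the largest log2 fold change; it was at 0.392, 0.694 and 595 CPM with vehicle and 584, 95.8 and 368 CPM with AA. Vehicle 3 had the highest Ccl8 level of all 6 libraries.

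Within proximal tubule cells, no gene passed edgeR's test with 6 libraries. The cells numbered 9400, 8455 and 1299 with vehicle and 674, 1590 and 773 with AA, and their sums held 7345132 to 120927897 UMIs. edgeR called 0 of 13119 genes (979 at an unadjusted p under 0.05, smallest adjusted p 0.558), and DESeq2 called 26, among them Gdf15, Plk2, Slc16a1, Hlf, Hpd and Hdc of the genes described below. Every AA library lay above every vehicle library for 13.1% of all genes tested and below for 2.23%. Without vehicle 3, 466 of 13175 genes were called (3.54%), 386 higher (2.93%) and 80 lower (0.607%), and without both vehicle 3 and AA 1 edgeR called 0 of 14680.

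Among 24 target genes of p53, the transcription factor activated by DNA damage, the median log2 fold change in proximal tubule cells was 0.88, against -0.019 over all genes tested. Like the other lists, this one was chosen with earlier results of these data known. In 10 of the 24 the AA libraries all lay above the vehicle libraries and in 0 below, against 13.1% and 2.23% of all genes; without vehicle 3 the median was 1.70 and 14 of 24 were called higher, 0 lower, against 2.93% and 0.607% of all genes. Gdf15, a secreted stress cytokine, was at 17.5, 18.2 and 63.1 CPM with vehicle and 131, 139 and 197 CPM with AA. Each AA library had more than 2 times the Gdf15 level of vehicle 3, the highest of the controls (log2 fold change 2.04 ± 0.53 (SE), edgeR adjusted p = 0.558, called by DESeq2; without vehicle 3, log2 fold change 2.90 ± 0.25 (SE), adjusted p = 0.0232; without AA 1, log2 fold change 2.17, adjusted p = 0.806).

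Zmat3, an RNA-binding zinc finger protein, was at 7.94, 9.25 and 23.1 CPM with vehicle and 26.8, 28.7 and 41.4 CPM with AA (log2 fold change 1.08 ± 0.42 (SE), adjusted p = 0.558), and Ccnd1, cyclin D1, was at 79.5, 115 and 267 CPM with vehicle and 308, 364 and 405 CPM with AA (log2 fold change 1.04 ± 0.43 (SE), adjusted p = 0.558). In both genes vehicle 3 lay between the other controls and the AA libraries. Phlda3, an inhibitor of Akt signalling, was at 1.0, 1.51 and 24.7 CPM with vehicle and 25.1, 41.3 and 57.3 CPM with AA (log2 fold change 2.04 ± 1.18 (SE), adjusted p = 0.558), with vehicle 3 just under the lowest AA library. Trp53inp1, a p53-inducible nuclear protein, was at 9.96, 10.8 and 113 CPM with vehicle and 76.2, 65.7 and 103 CPM with AA (log2 fold change 0.67 ± 0.92 (SE), adjusted p = 0.761), and here vehicle 3 was the highest of all 6.

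Further members of the p53 list were picked after their values were seen. Plk2, a polo-like kinase, was at 0.934, 1.61 and 4.72 CPM with vehicle and 13.1, 15.5 and 28.5 CPM with AA (log2 fold change 2.82 ± 0.63 (SE), edgeR adjusted p = 0.558; called by DESeq2), every AA library above every vehicle library. Cdkn1a, the cell cycle inhibitor p21, was at 21.7, 7.49 and 303 CPM with vehicle and 258, 199 and 293 CPM with AA (log2 fold change 0.98 ± 1.18 (SE), adjusted p = 0.734; without vehicle 3, log2 fold change 3.82 ± 0.57 (SE), adjusted p = 0.0341). Vehicle 3 had the highest Cdkn1a level of the 6 libraries, so the groups overlapped.

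The Cdkn1a difference between libraries was also seen cell by cell. With each cell thinned to 2000 UMIs, 3.64, 1.21 and 34.9% of proximal tubule cells had a Cdkn1a UMI with vehicle and 28.4, 22.2 and 29.5% with AA, against 17.4, 4.61 and 70.3% and 59.5, 41.1 and 49.2% before thinning. Cells under 2000 UMIs were left out, 568 of 19154 with vehicle and 192 of 3037 with AA. T cells of the same libraries, thinned alike, had a Cdkn1a UMI in 0.847 to 2.26% of cells. Macrophages thinned alike had one in 5.62, 5.93 and 17.7% with vehicle and 18.0, 17.3 and 16.9% with AA. In macrophages, too, vehicle 3 was thus with the AA libraries. Median depths were 6416.5 to 11589 UMIs in proximal tubule cells and 2558 to 4958 UMIs in T cells.

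The tubule injury list showed the position of vehicle 3 most plainly. Its 25 tested genes had a median log2 fold change of 0.45, and 0 of them separated the groups in either direction. Of all genes tested, 13.1% lay above without overlap and 2.23% below. Without vehicle 3 the median of 26 genes was 2.73, with 8 called higher and 0 lower, against 2.93% and 0.607% of all genes. C3, the central complement component, was at 5.82, 7.45 and 134 CPM with vehicle and 303, 108 and 886 CPM with AA (log2 fold change 2.90 ± 1.36 (SE), adjusted p = 0.558; without vehicle 3, log2 fold change 5.77 ± 0.96 (SE), adjusted p = 0.0373). Vcam1, an adhesion molecule of injured tubules, was at 0.653, 1.60 and 41.4 CPM with vehicle and 85.5, 16.3 and 70.1 CPM with AA (log2 fold change 1.78 ± 1.45 (SE), adjusted p = 0.625; without vehicle 3, log2 fold change 5.47 ± 0.82 (SE), adjusted p = 0.0341). In both genes vehicle 3 fell between the lowest and the highest AA library, and without AA 1 the log2 fold change of C3 was 3.11 (adjusted p = 0.806).

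Cp, which encodes the copper carrier ceruloplasmin, was at 0.860, 1.97 and 50.2 CPM with vehicle and 77.2, 24.9 and 106 CPM with AA (log2 fold change 1.77 ± 1.41 (SE), adjusted p = 0.62). Havcr1, the injury marker KIM-1, was at 0.943, 3.65 and 63.9 CPM with vehicle and 33.6, 21.2 and 29.7 CPM with AA (log2 fold change 0.13 ± 1.29 (SE), adjusted p = 0.971; without vehicle 3, log2 fold change 3.47 ± 0.55 (SE), adjusted p = 0.0353). The highest Havcr1 level was that of vehicle 3, and every AA library lay above vehicle 1 and 2. Sox9, a transcription factor of regenerating tubule cells picked after its values were seen, was at 0.0910, 0.0450 and 28.7 CPM with vehicle and 39.8, 10.1 and 18.4 CPM with AA, with vehicle 3 again among the AA libraries.

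Genes that respond to interferon had a median log2 fold change of 1.5 over 25 tested (3 above without overlap, 0 below) in proximal tubule cells, and the genes of class I and class II antigen presentation had 1.29 over 17 (1 above, 0 below). Over all genes tested 13.1% lay above and 2.23% below, so neither count was over the background. Without vehicle 3 the medians were 3.40 over 23 genes and 3.30 over 17, and 12 and 15 genes were called higher, 0 lower, against 2.93% of all genes called higher. For Gbp2, Psmb9, B2m and Cd74 alike, vehicle 1 and 2 had the lowest levels and AA 3 the highest. Gbp2, an interferon-induced GTPase, was at 0.628, 1.33 and 48.4 CPM with vehicle and 56.4, 34.2 and 111 CPM with AA (log2 fold change 1.80 ± 1.48 (SE), adjusted p = 0.626; without vehicle 3, log2 fold change 5.89 ± 0.61 (SE), adjusted p = 0.0232).

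The promoters of these genes were searched on both strands for the letters GAAA, any 2 bases and GAAA again, a core of the interferon-stimulated response element bound by interferon regulatory factors. It stood within the 250 bases before the start site in 6 of 21 genes of both lists that were called higher without vehicle 3 and had a promoter in RefSeq (28.6%), against 936 of 27025 genes in all (3.46%). It also stood in 2 of the 18 genes lower in B cells (described below) that had a promoter (11.1%), Tnfrsf17 and Txndc5, and in 0 of 15 of the unfolded protein list. The 6 were B2m, Bst2, Cxcl10, Gbp2, H2-T23 and Irgm1. Stretches of 3 of them are shown because they hold the motif, in capitals, 5′ to 3′ on the gene's strand (RefSeq, GRCm38.p6); Gbp2 lies at chr3:142620564-142620653 (+), B2m at chr2:122147508-122147597 (+), and Irgm1, with 2 overlapping copies, at chr11:48871421-48871490 (-). A match is a description of the letters and was not tested for binding. The genes searched came from lists of interferon-stimulated and antigen presentation genes. The share against all genes therefore describes these lists and says nothing of AA. List genes that were not called were not searched.
Gbp2: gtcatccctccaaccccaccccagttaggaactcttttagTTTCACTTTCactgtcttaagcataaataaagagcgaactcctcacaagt
B2m: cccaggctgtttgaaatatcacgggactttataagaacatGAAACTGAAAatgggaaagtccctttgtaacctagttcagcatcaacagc
Irgm1: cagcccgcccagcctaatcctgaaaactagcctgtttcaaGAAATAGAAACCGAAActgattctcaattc

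Psmb9, a subunit of the immunoproteasome that cuts peptides for class I presentation, was at 2.69, 3.37 and 39.8 CPM with vehicle and 53.9, 40.7 and 74.9 CPM with AA (log2 fold change 1.70 ± 1.01 (SE), adjusted p = 0.56; without vehicle 3, log2 fold change 4.0 ± 0.28 (SE), adjusted p = 0.0232). B2m, the light chain of class I molecules, was at 141, 214 and 1006 CPM with vehicle and 1157, 794 and 1673 CPM with AA (log2 fold change 1.21 ± 0.72 (SE), adjusted p = 0.56). Vehicle 3 was below the AA libraries for Psmb9 and between them for B2m. Cd74, the class II invariant chain, picked after its values were seen, was at 156, 147 and 2289 CPM with vehicle and 2547, 1463 and 3356 CPM with AA (log2 fold change 1.29 ± 1.06 (SE), adjusted p = 0.626; without vehicle 3, log2 fold change 3.78 ± 0.40 (SE), adjusted p = 0.0234).

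Thinned to 2000 UMIs, 4.77, 5.33 and 66.9% of proximal tubule cells had a Cd74 UMI with vehicle and 75.6, 52.8 and 90.3% with AA. Before thinning the shares were 14.7, 16.4 and 87.7% and 90.9, 68.6 and 95.9%. T cells thinned alike had one in 9.4, 6.21 and 24.5% with vehicle and 18.1, 16.0 and 32.0% with AA, so these shares, too, were higher in the other 4 libraries than in vehicle 1 and 2. The share in proximal tubule cells was above that in T cells in those 4 libraries and below it in vehicle 1 and 2, and how much free RNA contributed to either was not tested.

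Markers of several other cell types, leukocytes among them but not these alone, were higher in the mean with AA in the proximal tubule sums. The summed level of the 5 T cell markers was 16.9, 14.1 and 68.9 CPM with vehicle and 80.3, 93.8 and 135 CPM with AA, with 5 of 5 higher in the mean with AA. The 6 monocyte markers summed to 26.5, 47.3 and 206 CPM and 285, 96.7 and 225 CPM, with 6 of 6 higher. The 6 macrophage markers summed to 43.1, 64.0 and 138 CPM and 139, 74.4 and 105 CPM, with 5 of 6 higher. The 6 neutrophil markers summed to 8.64, 820 and 338 CPM and 354, 126 and 3.68 CPM, with 1 of 6 higher. Of dendritic markers 5 of 5 and of B cell markers 6 of 6 were higher. Of podocyte markers 5 of 5 were, of collecting duct principal 5 of 6, of thick ascending limb 4 of 5 and of pericyte or smooth muscle 4 of 6. Of fibroblast markers 3 of 6 were, of urothelium 2 of 4 and of distal convoluted tubule 1 of 4. Of natural killer markers 1 of 5 were, of endothelial 1 of 7, of intercalated 0 of 6 and of erythroid 0 of 5. None of these markers was at 0 in all libraries, and the part of such RNA in the interferon and antigen presentation results was not tested.

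Of 34 genes of proximal tubule transport and metabolism, the median log2 fold change was -0.43, with 3 above and 5 below without overlap (13.1% and 2.23% of all genes tested) and, without vehicle 3, 1 called higher and 0 lower (2.93% and 0.607%). The counts above and called higher were thus not over the background. Keg1, a kidney gene of the glycine N-acyltransferase family, was at 2462, 2326 and 1095 CPM with vehicle and 891, 787 and 404 CPM with AA (log2 fold change -1.69 ± 0.45 (SE), adjusted p = 0.558). Slc27a2, which activates and imports very long fatty acids, was at 1862, 936 and 964 CPM with vehicle and 738, 655 and 497 CPM with AA (log2 fold change -1.22 ± 0.39 (SE), adjusted p = 0.558). Both had their 3 lowest levels in the AA libraries. The 1 gene called higher without vehicle 3 was Cyp24a1, the enzyme that inactivates vitamin D, at 10.7, 22.4 and 172 CPM with vehicle and 183, 126 and 361 CPM with AA (log2 fold change 3.55 ± 0.52 (SE), adjusted p = 0.0325).

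The genes that take up and activate aristolochic acid itself had a median log2 fold change of -0.19 over 10 tested. Of these 1 lay above and 0 below without overlap, against 13.1% and 2.23% of all genes tested, so the count above was not over the background. Without vehicle 3, 0 were called, against 3.54% of all genes. Slc22a6 (OAT1), an organic anion transporter of the basolateral membrane, was at 748, 309 and 92.7 CPM with vehicle and 125, 226 and 123 CPM with AA (log2 fold change -1.5 ± 0.75 (SE), adjusted p = 0.558). Slc22a8 (OAT3), its close relative, was at 191, 394 and 102 CPM with vehicle and 68.3, 185 and 36.8 CPM with AA (log2 fold change -1.35 ± 0.72 (SE), adjusted p = 0.558). For Slc22a6 vehicle 3 had the lowest level of all 6, and for Slc22a8 it lay between the AA libraries. By contrast Slc34a1, the phosphate transporter of the brush border, picked after its values were seen, was at 2469.6, 2422 and 2016 CPM with vehicle and 2189.7, 2934 and 2281 CPM with AA, with the groups interleaved.

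Of 21 proliferation genes in proximal tubule cells, 10 had every AA library above every vehicle library (median log2 fold change 1.21), and 4 were called higher without vehicle 3, against 13.1% and 2.93% of all genes tested. Stmn1, a microtubule regulator of dividing cells, was at 95.1, 69.5 and 92.4 CPM with vehicle and 130.2, 103 and 151 CPM with AA (log2 fold change 0.36 ± 0.23 (SE), adjusted p = 0.567). Among chemokines and cytokines (median 1.09 over 20, 3 above, which is near the background, and 0 below; without vehicle 3, 6 called higher and 1 lower), Cxcl16, a membrane-bound chemokine for T cells, was at 19.4, 49.5 and 122 CPM with vehicle and 163, 134 and 216 CPM with AA (log2 fold change 1.23 ± 0.59 (SE), adjusted p = 0.558). The AA libraries were the 3 highest for Cxcl16, with vehicle 3 close below. Of 22 matrix genes 9 were high enough to test, with 2 above and 0 below and 2 called higher without vehicle 3. Of Nrf2 targets and metallothioneins, 15 tested with a median of -0.16, and respiratory chain genes, 19 with a median of -0.31, edgeR called 0 with or without vehicle 3.

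Of the proximal tubule genes with the smallest p, 0 passed edgeR's test, while DESeq2 called Slc16a1 and Hlf. Slc16a1, the monocarboxylate transporter MCT1, was at 27.8, 43.3 and 41.7 CPM with vehicle and 71.6, 91.9 and 115 CPM with AA (log2 fold change 1.12 ± 0.23 (SE), adjusted p = 0.558). Mavs, the adaptor of RNA-sensing antiviral receptors, was at 15.0, 19.2 and 15.0 CPM with vehicle and 32.2, 28.7 and 45.3 CPM with AA (log2 fold change 0.90 ± 0.19 (SE), adjusted p = 0.558). Hlf, a PAR-domain transcription factor of circadian output, was at 57.2, 76.4 and 45.5 CPM with vehicle and 33.3, 29.6 and 30.6 CPM with AA (log2 fold change -1.13 ± 0.21 (SE), adjusted p = 0.558). In all 3 the AA libraries lay outside the range of the controls, vehicle 3 included.

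Hpd, which breaks down tyrosine, was at 68.5, 198 and 5.36 CPM with vehicle and 2.69, 2.67 and 0.681 CPM with AA (log2 fold change -5.58 ± 1.29 (SE), adjusted p = 0.558; without vehicle 3, log2 fold change -6.13 ± 0.64 (SE), adjusted p = 0.0232), and Hdc, the enzyme that makes histamine, was at 172, 703 and 8.96 CPM with vehicle and 8.29, 2.36 and 0.681 CPM with AA. Both were highest in vehicle 2, the library with Xist, and the sex-biased kidney genes differed between libraries in the same cells, Kap, an androgen-regulated kidney protein, being at 45160, 597 and 27898 CPM with vehicle and 13845, 10735 and 3807 CPM with AA. The part of sex in these genes was not tested, and leaving out vehicle 2 left 0 genes called. Among the genes called higher without vehicle 3 that averaged 20 CPM or more, the largest log2 fold change was that of Ubd, the ubiquitin-like modifier FAT10, at 0.488, 0.202 and 58.3 CPM with vehicle and 80.3, 34.3 and 151 CPM with AA (log2 fold change 7.67 ± 0.87 (SE), adjusted p = 0.025).

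**Figure D2:**
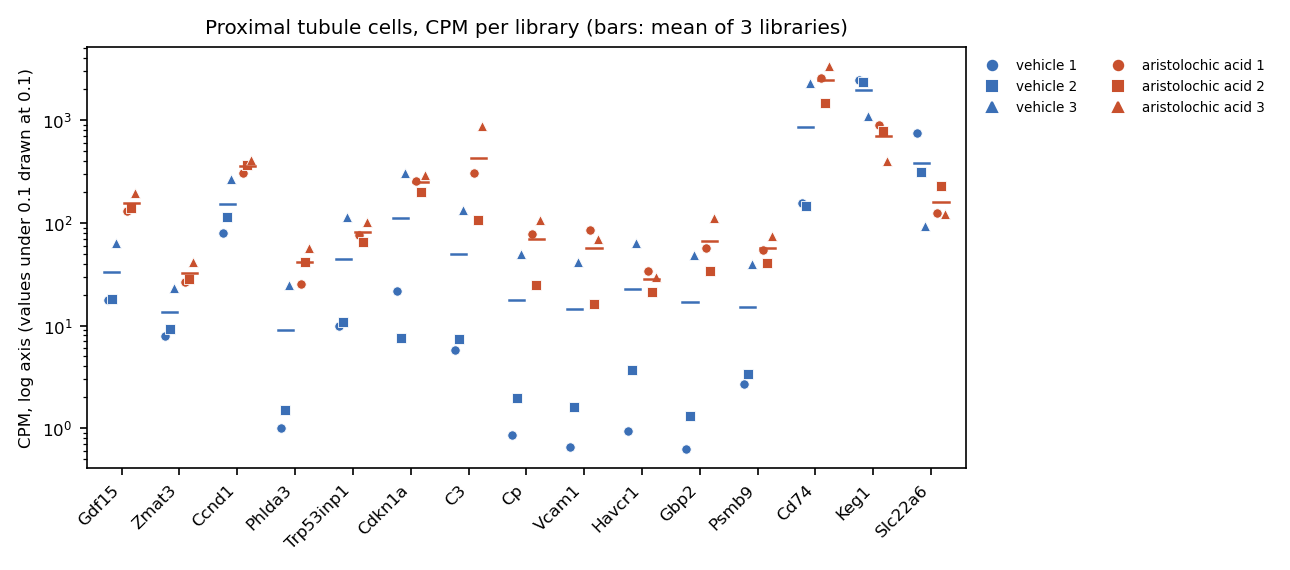
Levels of 15 genes in proximal tubule cells are plotted on a log axis in CPM, 1 point per library for vehicle and AA, with vehicle 3 marked and values under 0.1 CPM drawn at 0.1. For Gdf15 and Keg1 the groups are separate, while for Cdkn1a, C3, Vcam1 and Havcr1 vehicle 3 sits among or above the AA libraries.

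In macrophages, too, edgeR called 0 of 11241 genes with 6 libraries (720 at an unadjusted p under 0.05, smallest adjusted p 0.754), and DESeq2 called 28, Fn1, Ecm1, Ltc4s and Mmp13 among them. The cells numbered 277, 478 and 1109 with vehicle and 977, 152 and 439 with AA. Without vehicle 3, 926 of 10340 genes were called (8.96%), 452 higher (4.37%) and 474 lower (4.58%), and without vehicle 3 and AA 1, 382 of 9942 (3.84%), 202 higher (2.03%) and 180 lower (1.81%). Over all genes tested, every AA library lay above every vehicle library in 8.68% and below in 3.17%.

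Fn1, fibronectin, was at 211, 246 and 526 CPM with vehicle and 1666, 1000 and 1298 CPM with AA (log2 fold change 1.96 ± 0.41 (SE), adjusted p = 0.754; without vehicle 3, log2 fold change 2.54 ± 0.25 (SE), adjusted p = 0.00935). Ecm1, a secreted matrix protein, was at 34.4, 46.5 and 50.7 CPM with vehicle and 177, 101 and 206 CPM with AA (log2 fold change 1.83 ± 0.30 (SE), adjusted p = 0.754; without vehicle 3, log2 fold change 2.0 ± 0.33 (SE), adjusted p = 0.0253). Both were among the genes with the smallest p, and each AA library lay above each vehicle library. Without AA 1 the log2 fold changes were 1.74 for Fn1 (adjusted p = 0.80) and 1.75 for Ecm1 (adjusted p = 0.647). Ltc4s, the synthase of leukotriene C4, was at 56.4, 61.7 and 70.8 CPM with vehicle and 152, 113 and 235 CPM with AA (log2 fold change 1.36 ± 0.28 (SE), adjusted p = 0.754). Mmp13, a collagenase, was at 127, 139 and 14.5 CPM with vehicle and 10.2, 4.80 and 4.5 CPM with AA (log2 fold change -3.73 ± 0.81 (SE), adjusted p = 0.754; without vehicle 3, log2 fold change -4.24 ± 0.36 (SE), adjusted p = 0.00737), with vehicle 3 close to the AA libraries.

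The 22 tested genes of the macrophage state list had a median log2 fold change of 0.74, against 0.0087 over all genes tested. Without overlap 6 lay above and 0 below, against 8.68% and 3.17% of all genes. Without vehicle 3 the median was 1.38, with 10 called higher and 1 lower, against 4.37% and 4.58% of all genes. Spp1, osteopontin, was at 24.8, 71.1 and 1320.1 CPM with vehicle and 1969.7, 1545 and 1431 CPM with AA (log2 fold change 1.70 ± 1.24 (SE), adjusted p = 0.788; without vehicle 3, log2 fold change 5.08 ± 0.49 (SE), adjusted p = 0.00912). Arg1, arginase, was at 1.38, 5.86 and 226 CPM with vehicle and 271, 155 and 255 CPM with AA (without vehicle 3, log2 fold change 5.81 ± 0.50 (SE), adjusted p = 0.0074). For both, vehicle 3 was near the AA libraries and vehicle 1 and 2 were far below.

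Trem2, a lipid-sensing receptor of macrophages in injured tissue picked after its values were seen, was at 13.1, 47.7 and 297 CPM with vehicle and 312, 337 and 370.4 CPM with AA (log2 fold change 1.39 ± 0.93 (SE), adjusted p = 0.763; without vehicle 3, log2 fold change 3.44 ± 0.48 (SE), adjusted p = 0.0181). Gpnmb, a lysosomal membrane glycoprotein, was at 0, 0 and 55.0 CPM with vehicle and 43.5, 78.7 and 71.1 CPM with AA, so vehicle 1 and 2 were listed at 0 and no fold is given. Il1b, which encodes interleukin-1 beta, was at 619, 568 and 30.5 CPM with vehicle and 60.9, 138 and 116 CPM with AA (log2 fold change -1.93 ± 0.89 (SE), adjusted p = 0.754; without vehicle 3, log2 fold change -2.50 ± 0.33 (SE), adjusted p = 0.0149). Its lowest level of all 6 was in vehicle 3.

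Thinned to 2000 UMIs, 56.2, 51.9 and 4.46% of macrophages had an Il1b UMI with vehicle and 9.91, 20 and 14.4% with AA. For Trem2 the shares were 2.62, 6.78 and 27.1% and 31.8, 46.7 and 39.2%. The order of the libraries was that of the CPM for Il1b, and every AA library had a larger share with Trem2 than every vehicle library. Cells under 2000 UMIs were left out, 26 of 1864 with vehicle and 18 of 1568 with AA.

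In macrophages the 17 genes of the class I and II list had a median log2 fold change of -0.13, against 0.0087 over all genes tested. Without overlap 0 lay above and 4 below, against 8.68% and 3.17% of all genes. Without vehicle 3, 0 were called higher and 3 lower, against 4.37% and 4.58% of all genes. H2-Aa, a class II alpha chain, was at 12843, 10863 and 8688 CPM with vehicle and 7904, 6023 and 5167 CPM with AA (log2 fold change -0.77 ± 0.21 (SE), adjusted p = 0.754; without vehicle 3, log2 fold change -0.89 ± 0.21 (SE), adjusted p = 0.0471), and Cd74 was at 38164, 37934 and 29407 CPM with vehicle and 27615, 18740 and 16729 CPM with AA (log2 fold change -0.75 ± 0.21 (SE), adjusted p = 0.754). Both were lower in each AA library than in vehicle 3, itself the lowest of the controls. Ciita, the coactivator that switches class II genes on, was at 318, 246 and 70.8 CPM with vehicle and 103, 86.9 and 117 CPM with AA (log2 fold change -1.03 ± 0.46 (SE), adjusted p = 0.754; without vehicle 3, log2 fold change -1.45 ± 0.18 (SE), adjusted p = 0.0145), with vehicle 3 the lowest of all.

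Of 21 proliferation genes in macrophages 4 lay above without overlap and 9 were called higher without vehicle 3, and of 25 interferon-stimulated genes 3 and 3. Over all genes tested 8.68% lay above and 4.37% were called higher without vehicle 3, and the 3 interferon-stimulated genes above were near that background. Among 21 p53 targets, 6 lay above and 0 below, and 3 were called higher and 1 lower without vehicle 3. Cdkn1a was at 28.2, 39.1 and 108 CPM with vehicle and 119.8, 137 and 141 CPM with AA (log2 fold change 1.08 ± 0.49 (SE), adjusted p = 0.754; without vehicle 3, log2 fold change 1.97 ± 0.19 (SE), adjusted p = 0.00935). Ccl8 was at 34.4, 26.2 and 2315 CPM with vehicle and 2462, 1181 and 1992 CPM with AA (log2 fold change 1.13 ± 1.47 (SE), adjusted p = 0.875; without vehicle 3, log2 fold change 5.98 ± 0.41 (SE), adjusted p = 0.00502). All AA libraries exceeded all vehicle libraries for Cdkn1a, whereas for Ccl8 vehicle 3 was second only to AA 1.

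RNA of other cells was also present in the macrophage sums. The antibody light chain Igkc, a product of plasma cells, was at 163, 14.8 and 3064 CPM with vehicle and 7522, 9856 and 1841 CPM with AA and was among the genes called higher without vehicle 3. The 5 T cell markers summed to 0.688, 33.2 and 123 CPM with vehicle and 147, 79.7 and 121 CPM with AA, and the 6 proximal tubule markers to 569, 433 and 110.0 CPM and 43.0, 594 and 67.4 CPM. The 6 neutrophil markers summed to 36.5, 168 and 331 CPM and 351, 543 and 107 CPM, with 6 of 6 higher in the mean with AA. The 5 dendritic markers summed to 113, 22.3 and 19.7 CPM and 20.65, 12.5 and 21.2 CPM, with 0 of 5 higher. Of monocyte markers 5 of 6 were higher, of T cell markers 5 of 5 and of proximal tubule markers 2 of 6. The part of RNA of other cells in the macrophage results, the class II genes included, was not tested.

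**Figure D3:**
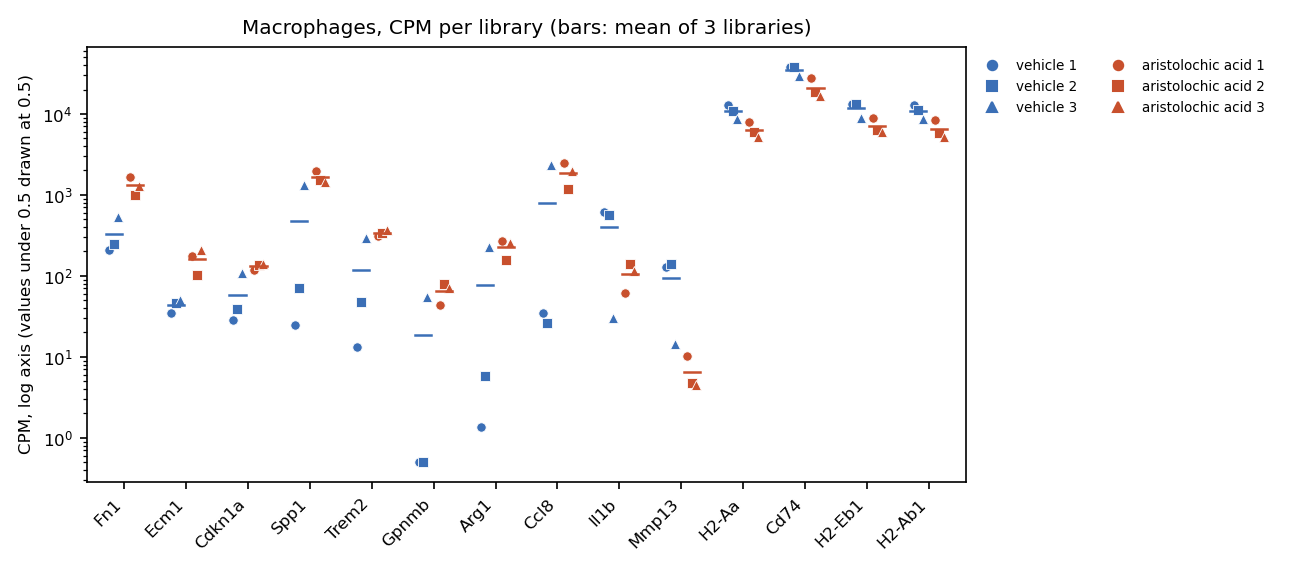
Levels of 14 genes in macrophages are plotted on a log axis in CPM, 1 point per library for vehicle and AA, with vehicle 3 marked and values under 0.5 CPM drawn at 0.5. Fn1, Ecm1 and the class II genes separate the groups, whereas Spp1, Arg1, Ccl8 and Il1b place vehicle 3 with the AA libraries.

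The difference between the effect in proximal tubule cells and that in macrophages was tested within libraries (limma on the difference of log2 CPM). With 6 libraries 0 of 10725 genes differed (724 at an unadjusted p under 0.05, smallest adjusted p 0.645), and without vehicle 3, 684 of 9979 (6.85%), 558 with the larger log2 fold change in the tubule and 126 in macrophages. For Cd74 the log2 fold change in the tubule exceeded that in macrophages by 3.24 with 6 libraries (adjusted p = 0.645) and by 4.65 without vehicle 3 (adjusted p = 0.00967). For H2-Aa these differences were 2.79 (adjusted p = 0.645) and 4.06 (adjusted p = 0.00967). For Cdkn1a, whose levels were higher with AA in both types without vehicle 3, the difference of 2.12 did not pass (adjusted p = 0.104). Vehicle 3 was singled out by the injury genes of these same libraries, so the values without it are no independent evidence. In the tubule sums, markers of T cells, monocytes and macrophages were lowest in vehicle 1 and 2. The part of RNA of such cells in these differences was not tested.

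Within T cells no gene passed edgeR's test with 6 libraries. edgeR called 0 of 12106 genes (552 at an unadjusted p under 0.05, smallest adjusted p 0.935), DESeq2 called 7, Gzma, Xcl1 and Klrc2 among them, and the cytotoxic list had a median log2 fold change of 0.13 over 13 genes, with 2 above and 0 below, against 3.34% and 6.46% of all genes tested. Gzma, the serine protease granzyme A, was at 230.2, 340.3 and 315 CPM with vehicle and 781, 476 and 712 CPM with AA (log2 fold change 1.27 ± 0.24 (SE), adjusted p = 0.935). Xcl1, a chemokine for dendritic cells, was at 191, 245 and 205 CPM with vehicle and 312, 378 and 423 CPM with AA (log2 fold change 0.93 ± 0.18 (SE), adjusted p = 0.935). Ccr9, a homing receptor for the gut and thymus, was at 42.4, 50.4 and 40.1 CPM with vehicle and 94.4, 58.4 and 89.1 CPM with AA (log2 fold change 1.0 ± 0.20 (SE), adjusted p = 0.935).

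These 3 genes had every AA library above every vehicle library and vehicle 3 among the controls. Klrc2, an activating receptor of the NKG2 family, was at 110.5, 80.3 and 29.9 CPM with vehicle and 13.1, 23 and 17.8 CPM with AA (log2 fold change -1.82 ± 0.43 (SE), adjusted p = 0.935), and Ifng, interferon gamma, was at 109.6, 125 and 25.6 CPM with vehicle and 33.9, 19.7 and 37.3 CPM with AA (log2 fold change -1.29 ± 0.51 (SE), adjusted p = 0.935). Without vehicle 3, 6 of 12096 genes were called (0.0496%), 2 higher (0.0165%) and 4 lower (0.0331%). Itgae, the integrin CD103 of tissue-resident T cells, was at 8.29, 10.2 and 81.6 CPM with vehicle and 104, 80.6 and 81.8 CPM with AA (without vehicle 3, log2 fold change 3.45 ± 0.21 (SE), adjusted p = 0.0193), and Lyst, a regulator of lysosome size, was at 182, 294 and 33.8 CPM with vehicle and 29.8, 32.0 and 24.7 CPM with AA (without vehicle 3, log2 fold change -2.85 ± 0.22 (SE), adjusted p = 0.0436). Vehicle 3 was with the AA libraries for Itgae, and close to them for Lyst. In the T cell sums, 5 natural killer markers came to 105, 162 and 66.4 CPM with vehicle and 71.8, 57.6 and 53.1 CPM with AA (2 of 5 with the higher mean with AA). The 6 monocyte markers came to 802, 803 and 452 CPM and 434, 308 and 416 CPM (2 of 6), and the 6 proximal tubule markers to 670.2, 283 and 60.0 CPM and 22.2, 193 and 81.7 CPM (0 of 6). The part of such RNA in the lower levels of Klrc2, Ifng and Lyst was not tested.

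Monocytes gave 0 calls of 8640 genes with edgeR (238 at an unadjusted p under 0.05, smallest adjusted p 0.407) and 2 with DESeq2, Emp1 and Hebp1. Emp1, an epithelial membrane protein, was at 6.60, 7.39 and 6.66 CPM with vehicle and 34.8, 72.4 and 35.4 CPM with AA (log2 fold change 2.65 ± 0.38 (SE), adjusted p = 0.407). Hebp1, a heme-binding protein, was at 14.9, 12.3 and 1.96 CPM with vehicle and 50.3, 86.9 and 52.4 CPM with AA (log2 fold change 3.03 ± 0.55 (SE), adjusted p = 0.791). For both, the lowest AA library was more than 3 times the highest vehicle library, and AA 2 was summed from 35 cells. The vehicle sums held 605938, 811752 and 2550927 UMIs, so the vehicle levels of both genes rest on few UMIs. Of 24 interferon-stimulated genes 4 lay above without overlap and 0 below (3.72% and 3.99% of all genes tested; median log2 fold change 0.57).

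Without vehicle 3, edgeR called 8 of 7316 genes in monocytes (0.109%), 5 higher (0.0683%) and 3 lower (0.041%). The higher ones were Ccl5, Trbc2, Cd3g, Nkg7 and Gdpd3, of which Trbc2 and Cd3g encode parts of the T cell receptor complex. The lower ones were Miox, an enzyme of the proximal tubule, Ccnd1 and Fosb. Without vehicle 3 and AA 1, 46 genes were called (0.678%). T cell markers in the monocyte sums came to 4.95, 1.23 and 136 CPM with vehicle and 106, 112 and 156 CPM with AA, and proximal tubule markers to 408, 186 and 36.1 CPM and 50.3, 145 and 51.8 CPM. The 6 neutrophil markers came to 1482, 2174 and 279 CPM with vehicle and 530.3, 83.3 and 98.5 CPM with AA, with 0 of 6 having the higher mean with AA. The part of such RNA in the monocyte results was not tested.

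B cells were the only type in which edgeR made calls with all 6 libraries. Of 6943 genes 24 were lower with AA (0.346%) and 0 higher, and DESeq2 called 46, with 23 of the 24 among them. The 24 were Derl3, Edem1, Ccr10, Fndc3a, Pqlc3, Txndc5, Fam46c, Cited2, Ly6c2, Ell2, Ighg2b, Eaf2, Tnfrsf17, Igkv10-96, Gm5547, Ssr4, Dnajc3, Slamf7, Alcam, Fkbp11, Derl1, Wipi1, Creld2 and Os9. Without AA 1 edgeR called 8, and over the single libraries left out in turn the count ranged from 1 without AA 3 to 20 without vehicle 3.

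Derl3, which helps move misfolded proteins out of the endoplasmic reticulum, was lower in the B cell sums, at 111, 168 and 95.1 CPM with vehicle and 19.3, 31.1 and 22.0 CPM with AA (log2 fold change -2.47 ± 0.23 (SE), adjusted p = 0.0016). Nearly all of its UMIs came from a few cells with at least 3 of the plasma cell genes Jchain, Mzb1, Derl3 and Tnfrsf17, 83 of 83, 28 of 29 and 82 of 84 with vehicle and 21 of 21, 39 of 44 and 27 of 27 with AA, from 16, 3 and 17 and 6, 5 and 3 cells. Since Derl3 is 1 of the 4 genes that pick those cells, this share is a description. Edem1, which marks misfolded glycoproteins for disposal, fell from 168, 307 and 224 CPM to 67.3, 59.3 and 65.3 CPM (log2 fold change -2.0 ± 0.23 (SE), adjusted p = 0.00548). Ccr10, a homing receptor of antibody-secreting cells, fell from 135, 57.8 and 135 CPM to 21.2, 10.6 and 15.5 CPM (log2 fold change -3.15 ± 0.37 (SE), adjusted p = 0.00548). In all 3 genes the groups did not overlap, and vehicle 3 was within or close to the range of the other controls. Without AA 1 the log2 fold changes were -2.36 for Derl3 (adjusted p = 0.0175), -2.05 for Edem1 (adjusted p = 0.0205) and -3.42 for Ccr10 (adjusted p = 0.0175).

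Ell2, an elongation factor that favours the secreted form of antibody RNA, was at 87.1, 145 and 39.6 CPM with vehicle and 27.6, 20.5 and 23.7 CPM with AA (log2 fold change -1.91 ± 0.35 (SE), adjusted p = 0.0452; without AA 1, -2.05, adjusted p = 0.105). Txndc5, a disulfide isomerase named after its values were seen, was at 718, 694 and 673 CPM with vehicle and 297, 228 and 319 CPM with AA (log2 fold change -1.48 ± 0.23 (SE), adjusted p = 0.0246). Ighg2b, the constant region of IgG2b, was at 5657, 219.8 and 486 CPM with vehicle and 45.1, 31.8 and 54.7 CPM with AA (log2 fold change -5.85 ± 1.06 (SE), adjusted p = 0.0454), and its spread among the controls was the widest of these. Without AA 1 its adjusted p was 0.14 and without vehicle 3 0.0517, and without vehicle 1 its log2 fold change was -3.27 (adjusted p = 0.02). Without vehicle 3 the 24 genes kept their sign, and 12 of them were among the 20 called then. With the stricter gate only 13 of the 24 had enough counts to be tested, and these 13 kept their sign with none called.

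The unfolded protein and integrated stress list, of 11 genes tested, had a median log2 fold change of -1.20 against 0.0075 over all genes, with 0 above and 6 below without overlap (14.5% and 3.1% of all genes tested). With 6 libraries edgeR called none of the 11 and DESeq2 called 4 lower, Hsp90b1, Pdia4, Sdf2l1 and Xbp1, and without vehicle 3 edgeR called 1 lower, Hsp90b1 (0.235% of all genes tested were). Xbp1, the transcription factor of plasma cells and of the unfolded protein response, was at 494, 503 and 289 CPM with vehicle and 206, 84.7 and 89.8 CPM with AA (log2 fold change -1.91 ± 0.36 (SE), adjusted p = 0.0504). Hsp90b1, the chaperone GRP94, was at 1318, 2192 and 701 CPM with vehicle and 389, 619 and 265 CPM with AA (log2 fold change -1.86 ± 0.35 (SE), adjusted p = 0.0504).

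The promoters of the 24 genes were searched on both strands for CCAAT, any 9 bases and CCACG, the endoplasmic reticulum stress response element. It was found within 250 bases before the start site in 3 of the 18 with a promoter in RefSeq (16.7%), Creld2, Derl3 and Dnajc3, against 35 of 27025 genes (0.13%), and in 2 of 15 genes of the unfolded protein list (13.3%), Hsp90b1 and Hspa5. Stretches of 3 are shown for the element, in capitals, 5′ to 3′ on the gene's strand (RefSeq, GRCm38.p6); Derl3 lies at chr10:75893202-75893300 (+), Creld2 at chr15:88819480-88819578 (+), and Hsp90b1, with 2 copies, at chr10:86705493-86705694 (-). Letters on the opposite strand read as CGTGG and ATTGG at the ends of the capitals. Here, too, a match describes the letters and was not tested for binding. The background was all genes with a promoter, not the 6943 tested in B cells. Genes that act in the endoplasmic reticulum, such as Derl3, are among the 24, so the share says nothing of AA.
Derl3: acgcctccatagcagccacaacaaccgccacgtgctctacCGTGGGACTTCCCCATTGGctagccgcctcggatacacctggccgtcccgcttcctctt
Creld2: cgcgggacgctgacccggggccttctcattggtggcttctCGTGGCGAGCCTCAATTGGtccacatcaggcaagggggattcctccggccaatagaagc
Hsp90b1: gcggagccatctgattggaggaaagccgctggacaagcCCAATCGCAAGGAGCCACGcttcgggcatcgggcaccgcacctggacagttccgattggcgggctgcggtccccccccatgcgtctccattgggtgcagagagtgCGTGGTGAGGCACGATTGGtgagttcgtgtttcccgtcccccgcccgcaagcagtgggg

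Cells with UMIs of at least 3 of 4 genes of antibody-secreting plasma cells, Jchain, Mzb1, Derl3 and Tnfrsf17, were counted in the B cell gate after the calls were seen. They were 16 of 132, 3 of 37 and 17 of 178 B cells with vehicle (12.1, 8.11 and 9.55%) and 6 of 223, 5 of 390 and 3 of 222 with AA (2.69, 1.28 and 1.35%). Since Derl3 and Tnfrsf17 are themselves among the 24 genes, these counts restate the calls and are no separate evidence. A stricter gate left 2, 0 and 2 such cells with vehicle and 2, 0 and 0 with AA, and edgeR then called 0 genes.

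In every library but AA 2, most cells with at least 3 of the 4 genes lay outside the B cell gate. They numbered 71, 19 and 87 in all with vehicle and 106, 8 and 25 with AA, of which 28, 10 and 43 and 61, 1 and 18 had no type. Over all cells of a library they made up 0.643, 0.174 and 1.18% with vehicle and 1.39, 0.177 and 0.445% with AA, with overlap. The part of plasma cell number in the 24 calls, and the levels per plasma cell, were not tested.

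**Figure D4:**
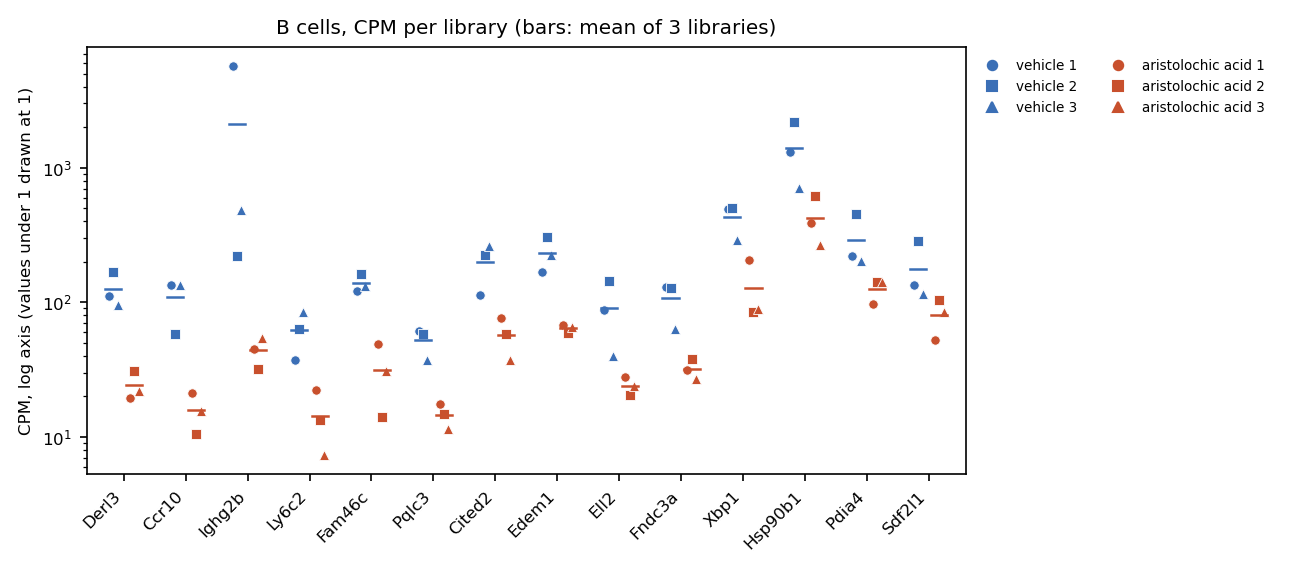
Levels of 14 genes in B cells are plotted on a log axis in CPM, 1 point per library for vehicle and AA, with vehicle 3 marked and values under 1 CPM drawn at 1. For Derl3, Ccr10, Edem1 and Ell2 all AA libraries lie below all vehicle libraries.

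A type was tested only with at least 50 of its cells in at least 2 libraries of each group, a limit set by choice. For types below that limit, values of Lcn2 and Egf are given as examples. In the thick ascending limb, which dilutes the filtrate, Lcn2, the injury marker NGAL, was at 3.03, 18.8 and 921 CPM with vehicle and 756, 153 and 673 CPM with AA, from 66, 105 and 29 cells and 40, 20 and 54 cells, and the lowest level rests on 1 UMI. In the distal convoluted tubule, Egf, the growth factor that healthy distal tubules secrete, was at 2675, 1302 and 579 CPM with vehicle and 453, 1026 and 487 CPM with AA, from 174, 233 and 32 cells and 48, 24 and 44 cells. The highest level was that of vehicle 3 for Lcn2, and those of vehicle 1 and 2 for Egf. Not every type split the libraries in this way. In intercalated cells Lcn2 was at 0, 0.833 and 25.0 CPM with vehicle and 304, 0 and 1.46 CPM with AA, on few UMIs in all but AA 1.

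The position of vehicle 3 was measured over the genes called without it. Its level was nearer to the AA mean than to the mean of vehicle 1 and 2 in 449 of 466 such genes in proximal tubule cells (96.4%) and 884 of 926 in macrophages (95.5%), against 66.2% and 74.3% of all genes tested. In B cells it was 12 of 20 (60%), against 55.6% of all. These shares describe a library chosen from the same values and carry no test.

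**Figure D5:**
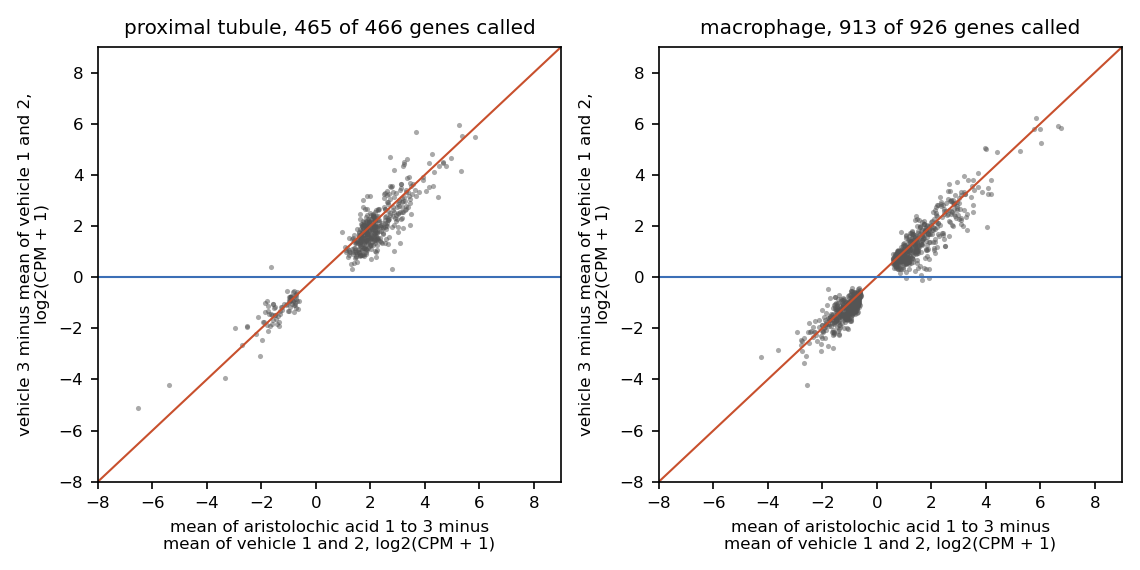
Each point is a gene called without vehicle 3, 465 of 466 in proximal tubule cells and 913 of 926 in macrophages. Genes not tested in the fit that includes vehicle 3 were left undrawn. The x axis gives the mean of AA minus the mean of vehicle 1 and 2. The y axis gives vehicle 3 minus the same mean (both in log2 of CPM + 1). Most points lie nearer the red line, where vehicle 3 equals the AA mean, than the blue line, where it equals the other controls; both axes subtract the same mean.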

How the data were processed

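GFP+ cells sorted from digested kidneys were profiled with the 10x Genomics 3′ v3 assay. The authors deposited UMI counts per gene and cell for each library; the submitters' processing notes name Cell Ranger 3.0.2, Seurat 2.3.4 and the mm10 build, and counting beyond this is not given in the sources used here. The cell type members and gene lists were chosen with earlier results of these data known.

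Cells were kept from 200 detected genes upward and up to 30% mitochondrial UMIs. A cell took a type when its mean over that type's markers (log UMIs per 10000, scaled to and capped at the 99th percentile) was at least 0.15 and 0.05 above the next (stricter gate, 0.25 and 0.1); 1.59 to 5.68% of cells took none. The cells of highest scrublet score (scanpy 1.11.5; 0.8% per 1000 cells, 3.61 to 8.83%) were marked as doublets, kept, and left out as an alternative. UMI counts were summed per library over all cells and per type and tested with edgeR 4.0.16 (quasi-likelihood, TMM, filterByExpr, two-sided, Benjamini-Hochberg over all genes tested, threshold 0.05); SE is the fold change divided by the square root of F. Shares were compared by two-sided exact permutation, 20 assignments, and the effects in 2 types with limma 3.58.1 (log2 CPM, prior count 2). Alternatives were DESeq2 1.42.0, RLE, no filter, a replicate block, all 9 kidney libraries, stricter cells and gate, and each library left out; leaving out vehicle 3 and AA 1 together was added after the data were seen. On simulated counts with the estimated spread, edgeR recovered 46% of 200 genes given a log2 fold change of 2 in proximal tubule cells, 68.5% in macrophages and 94% in B cells, and 0% over all cells. Of the calls in these cell types 3.16, 4.2 and 5.53% were false, in the same order. Genes and libraries were simulated independently, and only genes above a minimum count were changed. No library was shifted over many genes as vehicle 3 was, so these rates do not give the power of the real fits. Genes named were those with the largest change among calls, without overlap and averaging 20 CPM or more, the smallest p where none was called, and up to 5 per list by p. Depth differed between libraries and types, and sums of few cells are the less precise.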

Additional observations from a re-analysis of the deposited data

How the results depend on the processing

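With 6 libraries the count of genes past the threshold was 0 over all cells and in proximal tubule cells, macrophages, monocytes and T cells, and 24 in B cells. Leaving out 1 library at a time, it ranged from 0 to 4090 over all cells, 0 to 466 in proximal tubule cells, 0 to 926 in macrophages, 0 to 8 in monocytes, 0 to 6 in T cells and 1 to 20 in B cells, and from 0 to 684 for the difference between tubule and macrophages. All counts above 0 outside B cells were those without vehicle 3. In B cells 11 genes were called without vehicle 1, 7 without vehicle 2, 20 without vehicle 3, 8 without AA 1, 5 without AA 2 and 1 without AA 3. Without AA 1 and vehicle 3 together, a choice made after the data were seen, 1077, 0, 382, 46 and 8 genes were called over all cells and in proximal tubule cells, macrophages, monocytes and T cells. DESeq2 called 88, 26, 28, 2 and 7, and 46 in B cells. Without a filter on low counts 78 were called in monocytes and 226 in B cells, with all 9 kidney libraries 15 in B cells, and with the stricter gate 0 in B cells. RLE factors, stricter cells and leaving out doublets kept every count within 1.5 times. Causes were not tested.

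The share difference (AA minus vehicle, percentage points) changed sign for macrophages, 0.7 with 6 libraries and from -1.72 to 4.57 with 1 left out; for thick ascending limb cells, -0.00774, from -0.167 to 0.148, and 0.0029 among cells that have a type; and for intercalated cells, -0.0297, from -0.559 to 0.947. Negative for macrophages were the values without vehicle 1, vehicle 2 or AA 1. With 1 library left out, the log2 fold change ranged from -0.44 (vehicle 1 left out) to 3.47 for Havcr1 in proximal tubule, from -0.39 (AA 1) to 5.63 for Clec4n in all cells, from -0.15 (AA 1) to 4.82 for Serpina3g in macrophage, from -0.47 (AA 2) to 6.96 for Ccl5 in monocyte and from -0.88 (AA 1) to 8.33 for Ccl17 in all cells. The highest of each was without vehicle 3. Without AA 1 and vehicle 3 together, Ccl17 in all cells was at 7.59 and Ccl5 in monocyte at 7.13.

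The replicate numbers were not taken to pair the samples, since not every pair's deviations correlated above 0.1: r was from -0.388 to -0.108 over the comparisons for replicate 1, from 0.049 to 0.378 for replicate 2 and from -0.0901 to 0.318 for replicate 3. With the replicate block 15 genes were called in B cells, 9 of them among the 24, the 5 other counts stayed at 0, and Ccl17 in all cells had a log2 fold change of 4.15.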

Other observations

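3 genes, named after their values were seen, differed between libraries alike in several cell types. Gdpd3, a lysophospholipase D family gene, was low in vehicle 1 and 2 and high in the other 4 libraries in each of the 5 types tested: in T cells it was at 0, 0 and 123 CPM with vehicle and 254, 119 and 104 CPM with AA, and in macrophages at 8.95, 14.9 and 175 CPM and 323, 205 and 177 CPM. Tpm3-rs7, a tropomyosin 3 related sequence whose reads a near-identical gene could share, was highest in vehicle 2 and 3 in each type: in T cells it was at 12.9, 86.9 and 109 CPM with vehicle and 12.2, 15.3 and 7.19 CPM with AA. H2-Q7, a non-classical class I gene with close paralogs, had its lowest levels in vehicle 1 and AA 2 in each type, though in proximal tubule cells vehicle 2, at 4.2 CPM, was close to AA 2, at 2.44 CPM. In B cells it was at 4.02, 116 and 136 CPM with vehicle and 218, 9.89 and 147 CPM with AA. With 6 libraries edgeR called none of the 3 in these types.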
